A study of Mus musculus with 21 samples.

Results

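The nuclear genes for the subunits of oxidative phosphorylation were followed through 3 deposited RNA-sequencing tables of mouse liver and liver cells. The genes were the protein-coding nuclear genes whose symbols begin with Nduf followed by a, b, c, s or v and a number (complex I), are Sdha, Sdhb, Sdhc or Sdhd (complex II), begin with Uqcr or are Cyc1 (complex III), begin with Cox4 to Cox8 (complex IV), or begin with Atp5 (complex V). This rule found 89 gene identifiers in all, of which 82 stood in all 3 tables. The table of thioacetamide (TAA) livers held 85 of them among 34280 genes, with 38 in complex I, 4 in complex II, 9 in complex III, 17 in complex IV and 17 in complex V. The table of carbon tetrachloride (CCl4) livers and that of cultured hepatocytes each held 86 among 54532 genes, with 37, 4, 9, 18 and 18 in complexes I to V.

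The respiratory chain sits in the inner mitochondrial membrane. Complexes I and II take electrons from NADH and succinate and pass them to ubiquinone, complex III passes them on to cytochrome c, and complex IV passes them to oxygen. Complexes I, III and IV pump protons, and complex V, the ATP synthase, uses the returning protons to make ATP. Complex II is made of nuclear-encoded subunits alone, whereas the other complexes also contain subunits encoded by the mitochondrial genome, so that nuclear and mitochondrial transcripts are both needed to build them. In the liver these complexes supply hepatocytes, cells rich in mitochondria, with energy for glucose, lipid and urea metabolism.

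Each of the 7 groups had 3 libraries. The TAA livers came from mice with a hepatocyte-specific Nlrp3 deletion and from wild-type mice, and both groups were given TAA, a hepatotoxin, by intraperitoneal injection for 8 weeks. The CCl4 livers came from mice labelled Sting knockout and from wild-type mice, both injected with CCl4, another hepatotoxin, and the third group was wild-type mice given olive oil. The labels of the CCl4 and oil samples give 6 weeks, whereas the series' design text gives 8 weeks for the CCl4 groups. The cultured cells were primary hepatocytes, all stimulated with 1 µg/mL lipopolysaccharide for 6 hours and 10 µM nigericin for 30 minutes. In one of the 2 hepatocyte groups the NLRP3 inhibitor MCC950 (10 µM) was added 2 hours before stimulation, and the other had no inhibitor. NLRP3 is the sensor of an inflammasome, and STING is a sensor adaptor of innate immunity.

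Livers without TAA, oil-treated knockout livers and unstimulated hepatocytes were not analysed here, and the labels do not name the Cre line behind the hepatocyte deletion. Nothing in the labels says that replicates were separate mice or cultures, so the p-values measure the spread between these libraries, which may be technical. Total counts were 32096879 to 68913793 per TAA library, and the reads recovered from the other tables were 14353483 to 16684832 per CCl4-table library and 14883711 to 17157586 per hepatocyte library. FPKM are fragments per kilobase of gene length, scaled as in each deposited table. In the CCl4 table this scaling did not follow the recovered read totals. Sting1, listed as Tmem173, had 3.42, 1.98 and 5.28 FPKM in the libraries labelled Sting knockout, 6.10, 5.15 and 4.74 FPKM in wild-type CCl4 livers and 0.885, 1.23 and 1.46 FPKM in oil livers. The labelled knockout libraries thus overlapped the wild type and lay above oil. Their titles also carry codes that begin with SWT, and they are called the libraries labelled Sting knockout throughout. Whole-liver Nlrp3 was 0.08, 0.37 and 0.25 FPKM in the deletion livers and 0.15, 0.11 and 0.17 FPKM in the wild-type TAA livers, which overlap. A whole liver holds cells outside the deletion, so this value does not check the hepatocyte deletion. Hepatocyte markers (Alb, Apob, Ttr, Hpx, Cps1 and Tat) were present in every group, and in bulk RNA fewer cells of a type and less RNA per cell cannot be told apart.

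Nuclear subunit genes are known to be driven in part through promoter sites for NRF1, for the ETS factor GABP and for YY1. The letters of their core motifs were searched in the 250 bases before each gene start in the RefSeq GRCm38.p6 table, on both strands, where 69 of the 89 identifiers matched by symbol. The NRF1 core CGCATGCG, which reads the same on both strands, was found for 7 of the 69 (10.1%), against 1.75% of 27025 genes and 2.32% of coding genes. The ETS and GABP letters CCGGAAG were found for 12 (17.4%), against 7.83% of all genes and 10.2% of coding genes. The YY1 letters AAGATGG were found for 1 (1.45%), against 5.18% of all genes and 4.77% of coding genes. The last 3 letters of the ETS motif are the first 3 of the YY1 motif, so that 1 stretch can count for both, and the NRF1 core was searched apart from them. A match is a description of the sequence alone, and the absence of a match concerns these letters in this window.

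Cox6a1, Atp5l and Atp5j held both the NRF1 and the ETS letters. The stretches before the starts of Cox6a1 (the most abundant complex IV gene in all 3 tables), Atp5l, Sdhd and Cox5a are shown, the first pair because it carries both motifs and the second because both genes were called in the TAA comparison. Capitals mark the NRF1 core and the ETS letters, which appear as CTTCCGG where the match lies on the other strand. The Cox6a1 stretch (chr5:115348982-115349208, minus strand) ends 23 bases before the gene start, because bases that lie in transcribed exons were left out, and the ETS match of this gene, 16 bases before the start, is in the part not printed. The others are Atp5l (chr9:44920743-44920992, minus strand), Sdhd (chr9:50603850-50603909, minus strand) and Cox5a (chr9:57520982-57521231, plus strand). The NRF1 core began 161 bases before the start in Cox6a1 and 241 in Atp5l, the ETS letters lay 212 bases before the start in Atp5l and 46 in Sdhd, and Cox5a had no match.
Cox6a1: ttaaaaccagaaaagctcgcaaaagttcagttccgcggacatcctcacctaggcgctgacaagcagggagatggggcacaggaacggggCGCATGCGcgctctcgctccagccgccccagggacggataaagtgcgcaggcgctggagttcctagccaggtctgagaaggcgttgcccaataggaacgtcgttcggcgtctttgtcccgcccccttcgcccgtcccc
Atp5l: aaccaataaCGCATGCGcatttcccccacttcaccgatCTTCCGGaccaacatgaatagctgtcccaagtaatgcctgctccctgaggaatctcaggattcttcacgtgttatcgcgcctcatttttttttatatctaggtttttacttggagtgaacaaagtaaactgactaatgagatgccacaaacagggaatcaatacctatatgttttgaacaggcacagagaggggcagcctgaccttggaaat
Sdhd: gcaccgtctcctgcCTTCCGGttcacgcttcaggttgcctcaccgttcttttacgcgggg
Cox5a: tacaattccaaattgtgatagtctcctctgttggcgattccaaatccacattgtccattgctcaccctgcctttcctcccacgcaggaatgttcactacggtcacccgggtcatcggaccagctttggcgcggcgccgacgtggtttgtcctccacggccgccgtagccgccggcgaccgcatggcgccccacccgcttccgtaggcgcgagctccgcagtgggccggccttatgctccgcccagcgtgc

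The 89 genes were spread over 19 chromosomes, with at most 8 on one of them (chromosome 7). Levels differed widely within a complex, although the subunits are needed in fixed numbers. FPKM divides by the listed gene length, which differed between members (5628 bases for Ndufb2 and 1381 for Ndufa4), and its part in these ranges was not tested. In the CCl4 table Cox6a1 was the highest complex IV gene (mean over its libraries 430 FPKM). The tested gene of this complex with the lowest mean was Cox7a1, a heart and muscle isoform (1.64 FPKM). Complex I ran between Ndufa4 at 188 FPKM, which is named for complex I and counted there by its symbol but is now known as a complex IV subunit, and Ndufb2 at 2.02 FPKM. Complexes II and III were more even, with Sdhd highest at 155 FPKM and Sdhc lowest at 47.3 FPKM, both membrane anchors of complex II, and Uqcr10 at 203 FPKM and Uqcrc1 at 65.1 FPKM in complex III. Complex V ran between Atp5a1, the α subunit of the catalytic head, at 306 FPKM and Atp5s, counted there by its symbol alone, at 2.84 FPKM. The next lowest tested gene of complex V was Atp5l at 15.4 FPKM. Ndufa4 and Ndufb2 were again the highest and lowest complex I genes in the hepatocytes (101 and 1.75 FPKM), and Atp5a1 and Atp5s the highest and lowest of complex V there (261 and 2.15 FPKM).

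The isoforms known from heart, skeletal muscle or testis were low in all groups, at no more than 4.51 FPKM in any library, beside abundant liver partners. Cox6a2, the heart and muscle partner of Cox6a1, had 1.02, 3.64 and 0.380 FPKM in the libraries labelled Sting knockout, 0.486, 0.771 and 0.395 FPKM in wild-type CCl4 livers, and 0.0966, 0 and 0 FPKM in oil livers. Both CCl4 groups lay above oil (exact permutation p = 0.1 two-sided for each, the smallest that 3 libraries against 3 allow). Cox6b2, known from testis, had 0.105, 0.628 and 0.467 FPKM in the libraries labelled Sting knockout, and 0.894, 0.331 and 0.243 FPKM in wild-type CCl4 livers, against 0.178, 0.138 and 0 FPKM in oil livers. Against oil the exact permutation p was 0.1 for wild-type CCl4 and 0.3 for the labelled knockout libraries, which overlap oil. In the TAA table, where it was tested, Cox6b2 had 3.39, 4.23 and 1.29 FPKM in deletion livers and 3.78, 1.82 and 2.41 FPKM in wild-type livers, and Cox7a1 had 4.51, 1.76 and 1.32 FPKM and 2.24, 2.14 and 3.09 FPKM, overlapping in both genes. The levels were small, since Cox6a1 had 287, 351 and 125 FPKM in wild-type CCl4 livers and Cox6b1 135, 152 and 58.6 FPKM. Cox4i2, a lung and oxygen-responsive form of Cox4, had 0.147, 1.47 and 0.722 FPKM in the libraries labelled Sting knockout, 0.559, 0.466 and 0.341 FPKM in wild-type CCl4 livers and 0, 0.0970 and 0.357 FPKM in oil livers, which overlap. Cox7b2 and Cox8c were listed at 0 in every library of the 2 tables that hold them, and Cox8b stayed at or below 0.63 FPKM in all libraries. Members under the filter on low values were Cox8b in the TAA table, Cox4i2, Cox6a2, Cox6b2, Cox7b2, Cox8b, Cox8c and a further Atp5o identifier listed at 0 in the CCl4 table, and these with Cox7a1 in the hepatocyte table.

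**Figure D1:**
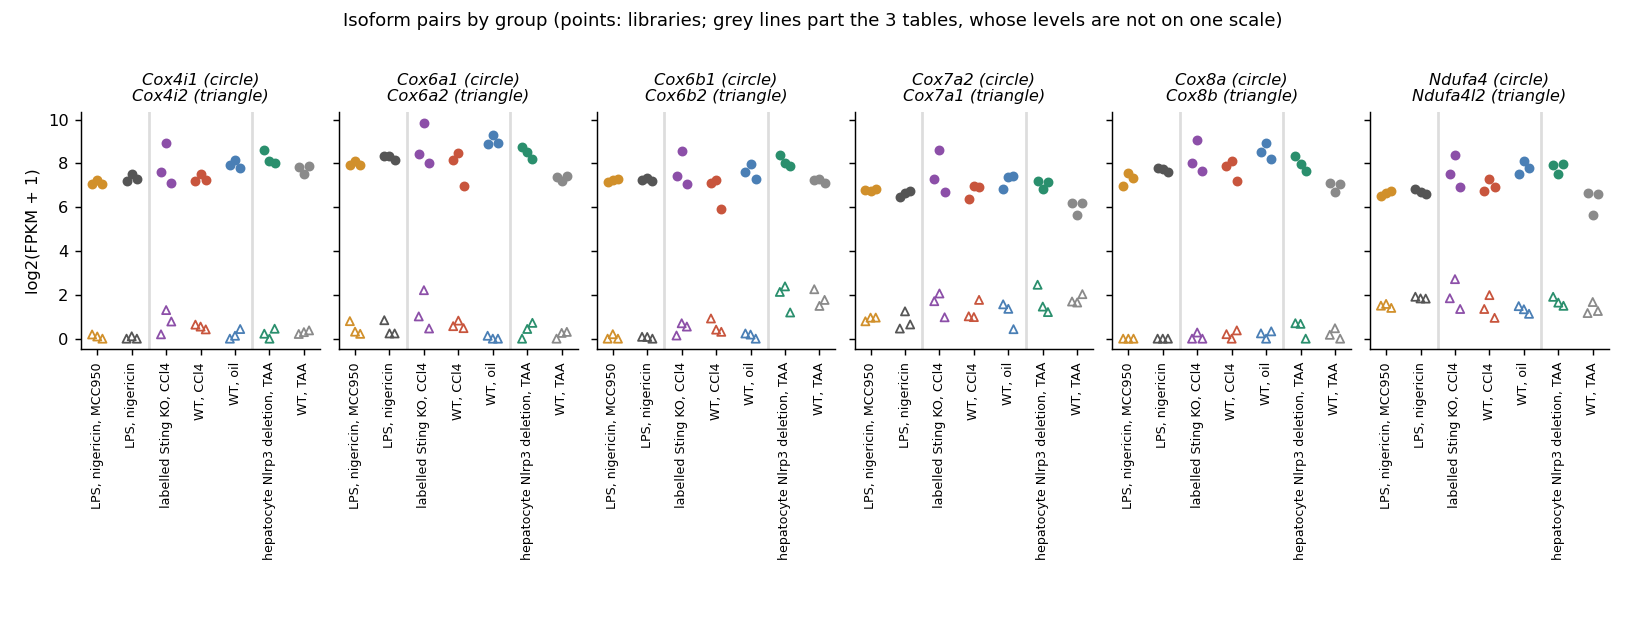
FPKM on a log axis of complex IV isoform pairs and of Ndufa4 with Ndufa4l2, by group; points are libraries. Isoforms known from other tissues lie far below their liver partners in each table, as with Cox6a2 at 0 to 3.64 FPKM beside Cox6a1 at 125 to 917 FPKM in the CCl4 table.

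The comparison under TAA asked how livers of mice lacking Nlrp3 in hepatocytes differed from wild-type livers. The summed level of each complex was higher in deletion livers, and in complex II by the largest ratio of the 5. The summed level of complex II was 299 ± 93.2 FPKM in deletion livers and 89.0 ± 9.40 FPKM in wild-type livers (SD, n = 3 each, ratio 3.36), and that of complex V was 1663 ± 42.9 and 854 ± 144 FPKM (ratio 1.95). Complex IV was 2049 ± 366 FPKM in deletion livers and 1133 ± 109 FPKM in wild-type livers (ratio 1.81), complex III 1156 ± 216 and 739 ± 113 FPKM (ratio 1.56), and complex I 2713 ± 699 and 1884 ± 311 FPKM (ratio 1.44). These ratios depend on the scaling. TMM-like scaling applies the same factor to every gene of a library, so it bears on all 5 complexes. The ratios of complexes III, IV and V were smaller under it, as given in the closing section, and those of complexes I and II are not exempt from it. In edgeR's quasi-likelihood test on the counts, with Benjamini-Hochberg adjustment over 18619 genes and a threshold of 0.05, 4 of the 84 tested members rose, namely Sdhd, Atp5pb, Cox5a and Ndufc2. Among all genes tested, 1.37% were called higher and 0.360% lower. None of the members fell by edgeR, at an unadjusted p under 0.05 (34 members higher, 0 lower, background 16.2% and 12.6%), or by DESeq2 or limma (0 each).

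Sdhd, a membrane anchor of complex II (chr9:50596357-50603812, minus strand), had 58.3, 130 and 156 FPKM in deletion livers, against 27.1, 17.5 and 28.0 FPKM in wild-type livers, a log2 difference on the count scale of 1.88 (SE 0.33, edgeR adjusted p = 0.0487). The groups did not overlap, and deletion replicate 1 was the lowest of its group. The same pattern held in Atp5pb, subunit b of the stalk that holds the ATP synthase head (chr3:105942698-105960099, minus strand), with 38.5, 75.6 and 76.7 FPKM in deletion livers against 16.4, 10.7 and 19.5 FPKM in wild-type livers (log2 difference 1.66, SE 0.28, edgeR adjusted p = 0.0487). Cox5a, a matrix-side subunit of cytochrome c oxidase (chr9:57521274-57532426, plus strand), had 60.8, 63.5 and 51.8 FPKM in deletion livers, against 22.1, 10.7 and 22.4 FPKM in wild-type livers (log2 difference 1.35, SE 0.24, edgeR adjusted p = 0.0487). Here the 3 deletion livers were close to one another and well above the wild type. Ndufc2, an accessory subunit of the membrane arm of complex I (chr7:97400003-97407802, plus strand), had 61.6, 66.2 and 76.4 FPKM in deletion livers, against 25.8, 19.9 and 31.4 FPKM in wild-type livers (log2 difference 1.04, SE 0.19, edgeR adjusted p = 0.0487), again with no overlap.

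A further 11 members lay just past the threshold, with edgeR adjusted p between 0.05 and 0.06, a band that held 917 of all 18619 genes. Sdha, the flavoprotein that oxidises succinate, was one of them, with 29.8, 84.3 and 90.8 FPKM in deletion livers and 15.6, 10.3 and 16.8 FPKM in wild-type livers (log2 difference 1.88, edgeR adjusted p = 0.0501). Atp5b, the catalytic β subunit of ATP synthase, had 115, 278 and 293 FPKM in deletion livers, against 66.5, 41.9 and 60.1 FPKM in wild-type livers (log2 difference 1.65, edgeR adjusted p = 0.0501). The deletion livers lay above every wild-type liver in both genes, with replicate 1 closest to the wild type. Uqcrc2, a core protein of complex III, had 37.1, 82.2 and 89.6 FPKM in deletion livers and 24.0, 19.1 and 22.2 FPKM in wild-type livers (log2 difference 1.29, edgeR adjusted p = 0.0561). The other 8 were Sdhc, Atp5a1, Atp5g2, Atp5c1, Cox7a2l (known for tying complexes III and IV together in supercomplexes), Ndufa4, Ndufb9 and Ndufs4, with log2 differences between 0.79 and 1.29.

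**Figure D2:**
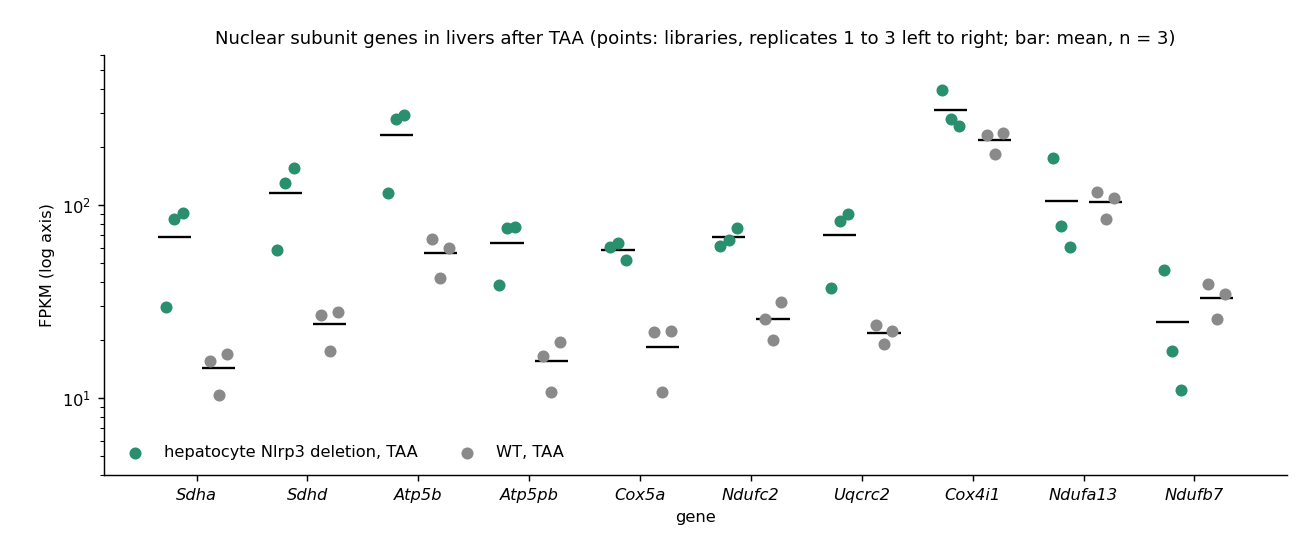
FPKM on a log axis of 10 member genes in livers after TAA; points are libraries, with replicates 1 to 3 in order, and bars are means of 3 libraries. For Sdha, Sdhd, Atp5b, Atp5pb and Uqcrc2 deletion replicate 1 lies below replicates 2 and 3, whereas for Cox4i1, Ndufa13 and Ndufb7 it lies above them.

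In complex IV the genes again differed from one another. Cox6a1 had 433, 369 and 290 FPKM in deletion livers, against 166, 147 and 172 FPKM in wild-type livers (log2 difference 0.80, SE 0.23, edgeR adjusted p = 0.0773), with no overlap. Cox4i1, a subunit that contacts the catalytic core, had 391, 280 and 255 FPKM in deletion livers, against 231, 183 and 235 FPKM in wild-type livers, also with no overlap in FPKM, although on the count scale its log2 difference was 0.16 (edgeR adjusted p = 0.699). Cox5b, a zinc-binding partner of Cox5a, had 172, 95.7 and 72.0 FPKM in deletion livers and 101, 81.1 and 76.8 FPKM in wild-type livers, which overlap (log2 difference 0.04). Ndufa4 had 240, 180 and 247 FPKM in deletion livers, against 99.2, 49.2 and 95.2 FPKM in wild-type livers (log2 difference 1.13, edgeR adjusted p = 0.0535), and its deletion livers lay well above the wild type.

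Of the 17 tested ATP synthase genes, 16 had a positive log2 difference and 1, Atp5e, a negative one. Atp5a1 had 136, 262 and 255 FPKM in deletion livers, against 77.3, 54.2 and 74.6 FPKM in wild-type livers (log2 difference 1.29, edgeR adjusted p = 0.0501). The c ring genes Atp5g1, Atp5g2 and Atp5g3, which encode the same mature protein, had log2 differences of 0.71, 0.94 and 0.82, and in each the groups were separated. Atp5l, subunit g, whose promoter stretch is printed above, had 22.6, 20.1 and 21.8 FPKM in deletion livers, against 11.1, 6.72 and 12.1 FPKM in wild-type livers (log2 difference 0.77, edgeR adjusted p = 0.0671). Atp5e had 160, 63.6 and 62.6 FPKM in deletion livers and 111, 88.4 and 98.8 FPKM in wild-type livers (log2 difference −0.40), and Atp5h, subunit d, 169, 101 and 106 FPKM against 110, 86.8 and 96.7 FPKM, which overlap in both genes. For Atp5e, deletion replicates 2 and 3 were below every wild-type liver and replicate 1 above.

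On counts scaled by TMM factors, the groups did not overlap for 38 of the 84 tested members, all of them higher in deletion livers, while 17.5% of all genes were separated in that direction and 18.7% in the other. The 38 were 13 of 38 tested members of complex I, 4 of 4 of complex II, 6 of 9 of complex III, 5 of 16 of complex IV and 10 of 17 of complex V. The median log2 difference on the count scale was 1.42 in complex II, 0.71 in complex V, 0.48 in complex III, 0.42 in complex IV and 0.16 in complex I, against −0.04 over all genes tested. Over the members it was 0.36, that is 0.41 above the median of all genes. That distance was 0.38 with limma on log2(FPKM + 1), in which the median of all genes was itself 0.33, and 0.77 with DESeq2, in which that median was −0.37.

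The genes of complex I did not all share 1 direction. Ndufv1, which carries the flavin that takes electrons from NADH, had 46.1, 60.8 and 55.6 FPKM in deletion livers and 29.9, 21.8 and 27.7 FPKM in wild-type livers (log2 difference 0.66, edgeR adjusted p = 0.0653), without overlap. Ndufb7, an accessory subunit chosen for naming after its values were seen, had 45.9, 17.5 and 11.1 FPKM in deletion livers and 39.1, 25.6 and 34.5 FPKM in wild-type livers (log2 difference −0.73, edgeR adjusted p = 0.366). Its deletion livers spanned the whole wild-type range, with replicate 1 above it and replicates 2 and 3 below. Ndufa13, a further accessory subunit, had 175, 77.8 and 60.3 FPKM in deletion livers and 117, 84.6 and 108 FPKM in wild-type livers, and Uqcrq, a small subunit of complex III, had 285, 108 and 94.9 FPKM against 207, 148 and 162 FPKM. In these genes too deletion replicate 1 was the highest library of all and the other two deletion livers were the lowest.

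Deletion replicate 1 stood apart from the other two deletion livers, in opposite directions for different members, and the calls depended on it. Over members, its log2 deviation from the gene means had a Spearman correlation of −0.42 with gene length, against 0.30 and 0.34 in replicates 2 and 3. Over coding genes the values were −0.30, −0.10 and −0.08 in replicates 1 to 3. The part of gene length was not tested. Without deletion replicate 1, edgeR called 30 of the 84 members higher and 12 lower, among 38.0% of all genes called. The 12 were Ndufa1, Ndufa2, Ndufa3, Ndufa5, Ndufa12, Ndufa13, Ndufb7, Ndufc1, Ndufs7, Ndufv3, Atp5e and Uqcrq, with Ndufb7 at a log2 difference of −1.61 and Uqcrq at −1.17. Reads of Ndufa12 may be shared with its pseudogene Ndufa12-ps, listed at up to 92.8 FPKM, so its values are uncertain. Complex I alone then had 8 members higher and 10 lower, and its median log2 difference was −0.10. Without any one of the other 5 libraries, no member was called. At a threshold of 0.06, 15 members passed, all higher, with 4.72% of all genes higher and 1.94% lower, and at 0.04 none did (0), with 0.00537% of all genes higher.

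**Figure D3:**
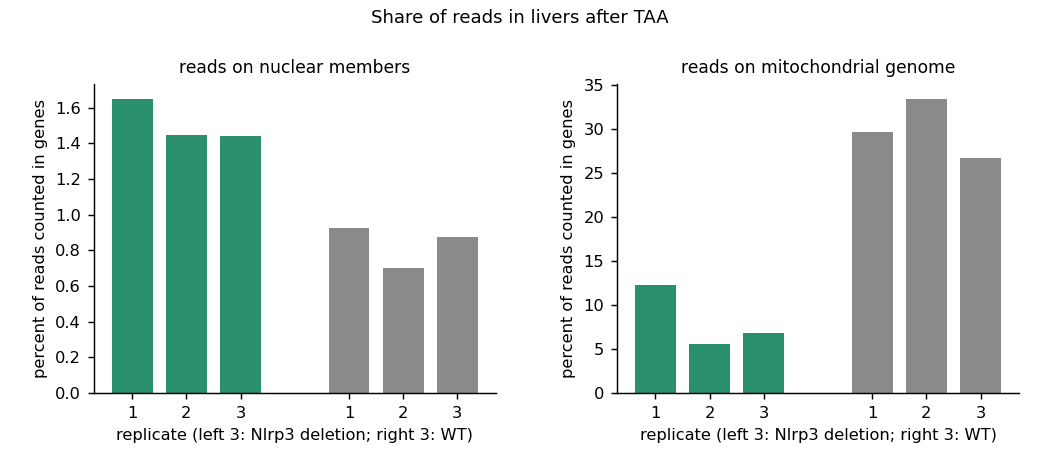
Percent of the reads counted in genes in each TAA library that came from the nuclear members and from the mitochondrially encoded genes. Bars are libraries by group. Deletion livers had 1.44% to 1.65% of reads in members, against 0.700% to 0.928% in wild-type livers, while mitochondrially encoded genes took 5.56% to 12.2% against 26.7% to 33.4%.

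The nuclear and the mitochondrially encoded subunits moved apart in this comparison. Nuclear members made up 1.44% to 1.65% of reads in deletion livers, against 0.700% to 0.928% in wild-type livers. The 13 mitochondrially encoded subunits took 5.56% to 12.2% of reads in deletion livers and 26.7% to 33.4% in wild-type livers, and their summed level was 70316 ± 29117 FPKM against 246431 ± 26741 FPKM. All 13 had a negative log2 difference (median −2.13), and 4 of 13 fell by edgeR, where 0.360% of all genes were called lower. Because such a share takes up part of every library's total, FPKM values of nuclear genes depend on it, and its part in the levels above was not tested.

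Neighbouring steps of energy metabolism were read from gene lists. Among all genes tested, edgeR called 1.37% higher and 0.360% lower, and 16.2% were higher and 12.6% lower at an unadjusted p under 0.05. Among 13 citric acid cycle genes, 1 rose by edgeR, Suclg1 (succinyl-CoA ligase, 31.6 ± 11.7 FPKM in deletion livers and 5.90 ± 0.603 FPKM in wild-type livers, log2 difference 2.02), and the median was 0.77. Among 5 ATP, ADP and phosphate carriers, 1 rose, Slc25a5 (an ADP/ATP translocase, 213 ± 101 and 37.2 ± 6.68 FPKM, log2 difference 2.13). Among 46 assembly factors, 1 rose, Nubpl, which inserts iron-sulfur clusters into complex I (log2 difference 3.21), and the median was 0.28. Of 9 hypoxia-induced genes 3 rose, the glycolytic enzymes Pgk1 (log2 difference 2.08) and Ldha (1.42) and the mitophagy receptor Bnip3 (1.21). Of 78 mitochondrial ribosomal protein genes 2 rose, Mrps18c and Mrpl53, and of 12 transcription and biogenesis regulators none was called by edgeR (1 higher and 4 lower at an unadjusted p under 0.05). Nrf1, the factor behind the NRF1 motif, had 0.793 ± 0.0451 FPKM in deletion livers and 0.920 ± 0.195 FPKM in wild-type livers (log2 difference −0.59, edgeR adjusted p = 0.139).

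Cell markers differed between these livers as well, although among the lists below the only gene called by edgeR was 1 of 3 dividing-cell markers, which fell. The summed FPKM of 6 hepatocyte markers was 20758 to 30030 in deletion livers and 7141 to 8055 in wild-type livers, and that of 6 macrophage markers 95.9 to 311 and 67.5 to 86.0. The 3 red cell markers summed to 102 to 249 FPKM in deletion livers and 49.8 to 80.2 FPKM in wild-type livers, and 4 endothelial markers to 9.20 to 20.9 and 6.99 to 8.70 FPKM. The dividing-cell markers summed to 2.08 to 2.93 FPKM in deletion livers and 2.70 to 4.33 FPKM in wild-type livers, and the 2 tested fat markers both had negative log2 differences. The lymphocyte markers summed to 4.04 to 4.73 FPKM in deletion livers and 2.45 to 4.05 FPKM in wild-type livers, although 3 of 4 had a negative log2 difference. The stellate cell and myofibroblast markers summed to 18.5 to 46.1 and 12.7 to 22.8 FPKM, and the neutrophil markers to 6.25 to 23.6 and 5.20 to 6.52 FPKM, in deletion and wild-type livers. Of these lists, Ucp1 among the fat markers was at 0 in all deletion livers and no other marker was at 0 in a whole group, and their part in the result was not tested.

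The CCl4 experiment asked how the injured liver differed from the oil-treated one. The members of all 5 complexes had lower summed levels in wild-type CCl4 livers, with ratios close to one another. The summed level was 1385 ± 254 FPKM in CCl4 livers and 2275 ± 440 FPKM in oil livers for complex I (SD, n = 3 each, ratio 0.609) and 306 ± 10.6 and 524 ± 28.4 FPKM for complex II (ratio 0.584). For complexes III, IV and V the ratios were 0.597, 0.591 and 0.614. Every CCl4 sum was below every oil sum. As shares of the recovered reads, members took 0.913%, 1.07% and 0.869% in wild-type CCl4 livers. In oil livers the shares were 1.18%, 1.29% and 0.975%, which overlap. The sums carry the table's own scaling, which the shares do not. Atp5a1, for example, had 14561 reads and 256 FPKM in CCl4 replicate 1, and 14074 reads and 420 FPKM in oil replicate 3. In all, 77 of 79 tested members had a negative log2 difference and the median was −0.66, against −0.08 over all 11511 genes tested. With quantile normalization the median over members was −0.28 and that of all genes −0.07.

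No single member was called in limma's test on log2(FPKM + 1), in which 9.19% of all genes were called higher and 6.15% lower. At an unadjusted p under 0.05 there were 19 lower and 0 higher, where the background was 14.3% lower and 14.1% higher, and edgeR on the recovered reads called 1 lower, Sdha. The groups were separated for 44 of 79 members, all lower, while 21.4% of all genes were separated in that direction and 16.6% in the other. Same-numbered libraries of these 2 groups deviated together, a match seen in the data and not given by the labels. Labelled knockout and oil libraries, in the same fit, did not all match by number. With the number as a block 8 members fell by limma, among 19.3% of all genes called: Atp5g3, Uqcr11, Sdha, Ndufb11, Cyc1, Ndufb6, Ndufv1 and Ndufb8. Without labelled knockout replicate 2, whose spread enters the shared fit, 15 fell, among 21.5% of all genes called. Without wild-type CCl4 replicate 3 the 1 member that fell was Uqcrc2, and without labelled knockout replicate 3 it was Sdha.

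All 4 complex II genes were separated. Sdha had 84.6, 80.5 and 79.7 FPKM in wild-type CCl4 livers, against 155, 165 and 132 FPKM in oil livers (log2 difference −0.87, SE 0.27, limma adjusted p = 0.0512). Sdhb, the iron-sulfur subunit that takes electrons on from Sdha, had 63.0, 50.4 and 65.0 FPKM in CCl4 livers, against 109, 136 and 146 FPKM in oil livers (log2 difference −1.12, limma adjusted p = 0.129). Sdhc, a membrane anchor, had 43.1, 36.2 and 30.8 FPKM in CCl4 livers, against 57.6, 61.6 and 64.5 FPKM in oil livers (log2 difference −0.73, limma adjusted p = 0.0992). In each of these the highest CCl4 liver was below the lowest oil liver, and the same held for Sdhd, with 128, 132 and 125 FPKM against 194, 194 and 159 FPKM.

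Among the ATP synthase genes, Atp5a1 had 256, 232 and 202 FPKM in wild-type CCl4 livers, against 394, 426 and 420 FPKM in oil livers (log2 difference −0.85, SE 0.30, limma adjusted p = 0.0880). Atp5g3, one of the genes for the membrane c ring, had 114, 114 and 50.6 FPKM in CCl4 livers, against 175, 193 and 165 FPKM in oil livers (log2 difference −1.02, limma adjusted p = 0.120). Neither gene overlapped between the groups. In complex III, Uqcrc2 had 54.5, 50.05 and 81.1 FPKM in CCl4 livers, against 97.2, 100.2 and 116 FPKM in oil livers (log2 difference −0.78, limma adjusted p = 0.0893). Cyc1, the cytochrome c1 that hands electrons to cytochrome c, had 83.0, 75.1 and 28.9 FPKM in CCl4 livers, against 133, 133 and 117 FPKM in oil livers (log2 difference −1.16, limma adjusted p = 0.121). CCl4 replicate 3 was the lowest library for Cyc1 and the highest CCl4 library for Uqcrc2, so the libraries did not keep their order from gene to gene.

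In complex I, Ndufb11, an accessory subunit of the membrane arm, had 75.3, 106 and 35.1 FPKM in wild-type CCl4 livers, against 133, 210 and 150 FPKM in oil livers (log2 difference −1.29, limma adjusted p = 0.0887). Ndufb8, another membrane-arm subunit, had 10.6, 11.8 and 6.00 FPKM in CCl4 livers, against 20.6, 26.5 and 12.6 FPKM in oil livers (log2 difference −0.99, limma adjusted p = 0.0957). Both were separated, although for Ndufb8 oil replicate 3 was close to the CCl4 livers. In complex IV, Cox6a1 had 287, 351 and 125 FPKM in CCl4 livers, against 467, 637 and 483 FPKM in oil livers (log2 difference −1.17, limma adjusted p = 0.166), and Cox7b, a small membrane subunit, 61.9, 77.8 and 61.1 FPKM against 96.4, 145 and 122 FPKM (log2 difference −0.83). Among genes with overlapping groups, Uqcr10, a small complex III subunit, had 125, 196 and 131 FPKM in CCl4 livers and 169, 227 and 163 FPKM in oil livers (log2 difference −0.32), and Atp5j2, subunit f, had 28.0, 47.5 and 63.7 FPKM in CCl4 livers and 39.8, 62.1 and 52.7 FPKM in oil livers (−0.20). Both were thus close to the spread of the libraries. The 2 members with a positive value were Ndufa4l2, known as a hypoxia-induced relative of Ndufa4, at 0.11 and Cox7a1 at 0.14, both with overlapping groups.

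**Figure D4:**
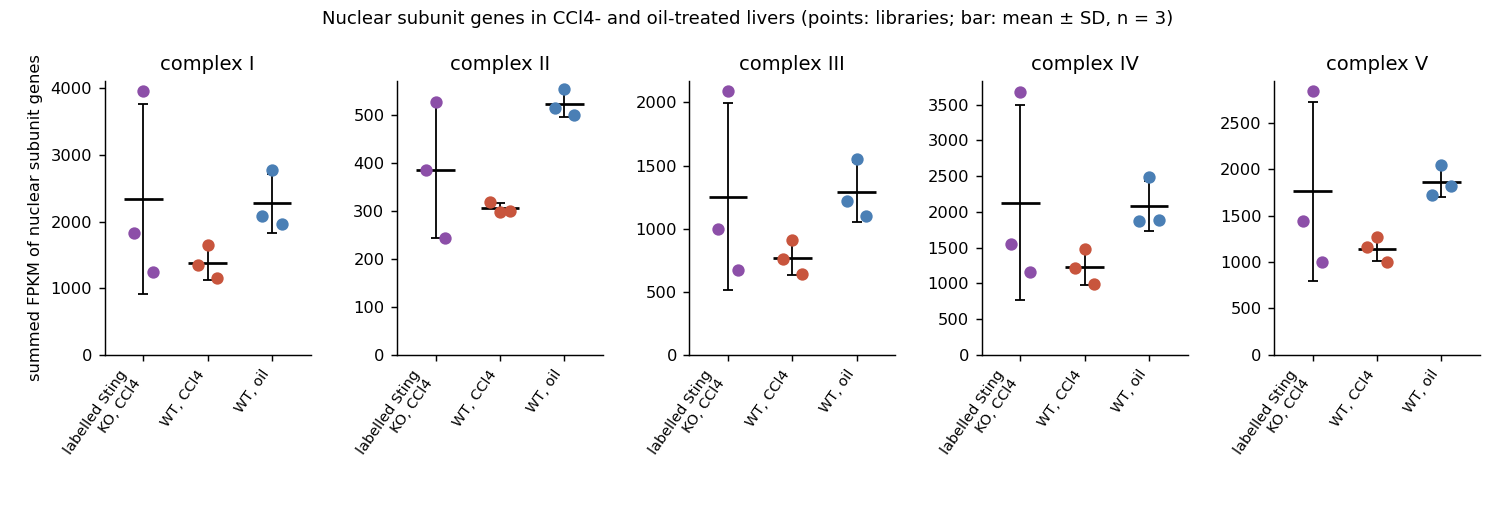
Summed FPKM of the members of each complex in every CCl4-table library; points are libraries and bars are means of 3. Each wild-type CCl4 sum lies below each oil sum, and labelled knockout replicate 2 lies above the other two libraries of its group in every complex.

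The mitochondrially encoded subunits pointed the same way here, with 27942 ± 6197 FPKM in wild-type CCl4 livers and 65397 ± 26956 FPKM in oil livers for the sum of 13 genes, of which 2 fell by limma (mt-Cytb, log2 difference −1.39, and mt-Nd4, −1.29). Among all genes tested, limma called 9.19% higher and 6.15% lower, and 14.3% were lower at an unadjusted p under 0.05. None of 42 assembly factors was called by limma (5 lower at an unadjusted p under 0.05, median −0.33), nor any of 77 mitochondrial ribosomal proteins (5 lower at an unadjusted p under 0.05, median −0.32). In both lists the share lower at an unadjusted p was under that of all genes. None of 13 citric acid cycle genes was called either (4 lower at an unadjusted p under 0.05, median −0.44), where that share was above it. Of 18 electron carrier and coenzyme Q genes 2 fell, Coq8a (log2 difference −1.81) and Etfdh, which passes electrons from fatty acid oxidation to ubiquinone (−1.16). Of 5 carriers 2 rose, Ucp2, an inner-membrane carrier abundant in immune cells (1.85), and Slc25a4, the muscle and heart ADP/ATP translocase (1.48). Of 7 hypoxia-induced genes 2 fell, Bnip3 (−1.34) and Pdk1 (−1.52). The summed FPKM of the macrophage markers was 843 to 1064 in CCl4 livers and 163 to 236 in oil livers, that of 6 stellate cell and myofibroblast markers 110 to 317 and 13.8 to 15.4, that of 3 dividing-cell markers, all 3 of which rose by limma, 19.7 to 49.1 and 0.349 to 0.855, that of 2 neutrophil markers 42.8 to 100.3 and 3.44 to 14.2, and that of the hepatocyte markers 34285 to 52672 and 43091 to 63262. The part of these cell types in the lower member levels was not tested.

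The libraries labelled Sting knockout were set against wild-type CCl4 livers. The members were higher on average, but all 79 tested members overlapped between the groups, where 2.35% of all genes were separated upwards and 2.78% downwards. None was called by limma, at an unadjusted p under 0.05 or by edgeR on recovered reads (0 each way), and 0% of all genes was called, 1.64% being higher and 1.54% lower at an unadjusted p under 0.05. The median log2 difference was 0.56, against 0.02 over all genes, with 78 of 79 positive. The summed levels gave ratios of 1.69 in complex I, 1.26 in complex II, 1.63 in complex III, 1.73 in complex IV and 1.54 in complex V. The median log2 difference of complex II was 0.22, but −0.05 with quantile normalization.

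The size of these values came mainly from 1 library. Summed complex I was 1832, 3957 and 1238 FPKM in labelled knockout replicates 1, 2 and 3, against 1344, 1657 and 1154 FPKM in wild-type CCl4 livers, so replicate 2 was far above all others and replicate 3 lay within the wild-type range. Same-numbered libraries deviated together weakly here (correlations 0.189, 0.176 and 0.120), which the labels do not explain. Within each number the labelled knockout library was the higher one for the sums of complexes I, III, IV and V, by as little as 1004 against 1002 FPKM for complex V in number 3. For complex II it was higher in numbers 1 and 2 and lower in number 3 (244 against 301 FPKM), and with the number as a block limma again called no member (0). Atp5e, the ε subunit of the ATP synthase, had 77.3, 226 and 58.4 FPKM in the labelled knockout libraries and 49.3, 77.5 and 24.2 FPKM in wild-type CCl4 livers (log2 difference 1.14, limma adjusted p = 0.761). Sdhb had 74.5, 196 and 46.3 FPKM in the labelled knockout libraries and 63.0, 50.4 and 65.0 FPKM in wild-type CCl4 livers (log2 difference 0.57). In both genes replicate 2 alone stood above the wild type by far, and in Sdhb replicate 3 was below it. The median coefficient of variation over members was 61.6% among the labelled knockout libraries and 26.2% among the wild-type CCl4 libraries. Without replicate 2 the median log2 difference was 0.13, with 58 of 79 positive. Ndufb11 gave 116, 220 and 83.5 FPKM in the labelled knockout libraries and 75.3, 106 and 35.1 FPKM in wild-type CCl4 livers (log2 difference 0.96), and here replicate 1 lay above the wild type too, with replicate 3 inside its range. In replicate 2 the members deviated from the table's gene means by a median of 1.11 on the log2 scale and coding genes by 0.01, and over coding genes the deviation had a Spearman correlation of −0.58 with gene length, a description over genes of 1 library. With a length trend removed from every library the median difference was 0.33. The 6 hepatocyte markers summed to 38197 to 88715 FPKM in the labelled knockout libraries and 34285 to 52672 FPKM in wild-type CCl4 livers, and the 3 red cell markers to 1703 to 2711 and 236 to 976 FPKM. The part of these markers and the remaining part of gene length in the result were not tested.

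Set against oil, the libraries labelled Sting knockout were separated downwards for a smaller share of the members than of all genes. This comparison uses the same oil livers as the wild-type one. None of 79 members was called by limma, in which 8.00% of all genes were called higher and 5.91% lower, and 3 were lower at an unadjusted p under 0.05, where the background was 14.0%. Sdha had 99.6, 87.3 and 62.9 FPKM in the labelled knockout libraries, against 155, 165 and 132 FPKM in oil livers (log2 difference −0.87, SE 0.27, limma adjusted p = 0.0558). Ndufs1, the largest iron-sulfur subunit of complex I, had 12.7, 12.3 and 8.61 FPKM in the labelled knockout libraries, against 17.5, 15.9 and 19.2 FPKM in oil livers (log2 difference −0.62, limma adjusted p = 0.101). Uqcrc2 had 69.7, 68.3 and 51.2 FPKM in the labelled knockout libraries, against 97.2, 100.2 and 116 FPKM in oil livers (log2 difference −0.73, limma adjusted p = 0.112). In these 3 genes, and in Sdhc and Atp5a1, all labelled knockout libraries including replicate 2 lay below all oil livers, and they were the 5 members separated downwards, against 19.8% of all genes.

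Wild-type CCl4 livers had 84.6, 80.5 and 79.7 FPKM for Sdha, so both CCl4 groups stood below oil for this gene. The median over members was −0.13 in the labelled knockout libraries against oil and −0.04 over all genes, and its sign was not stable. It was −0.56 without labelled knockout replicate 2, when 5 members fell by limma among 14.5% of all genes called (Sdha, Sdhb, Ndufs3, Ndufs7 and Ndufa12), 0.23 without replicate 3, 0.02 without oil replicate 2 and 0.03 with edgeR on recovered reads, which called Sdha lower. In complex II the median was −0.53.

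**Figure D5:**
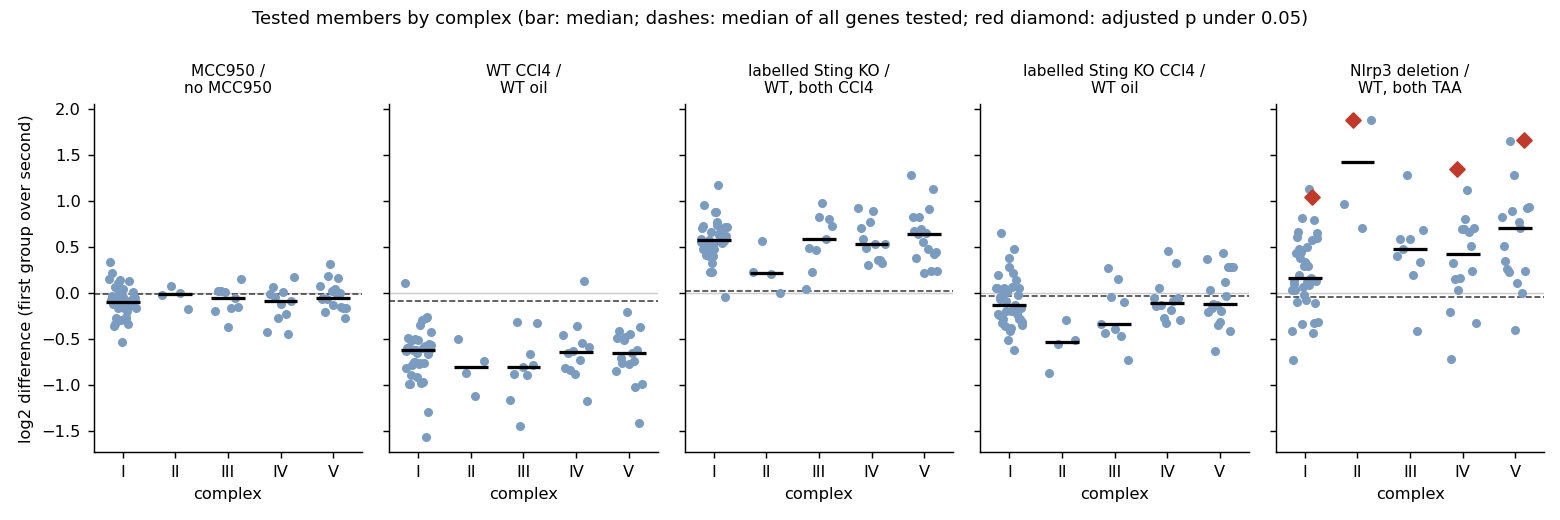
Log2 difference of each tested member by complex in the 5 comparisons, first-named group over second; points are genes, bars are medians by complex, dashed lines are medians of all genes tested and red diamonds are members with adjusted p under 0.05. Medians by complex run between −0.62 and −0.80 for wild-type CCl4 against oil and between 0.16 in complex I and 1.42 in complex II for the Nlrp3 deletion against wild type under TAA.

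In stimulated hepatocytes the comparison asked what MCC950 changed, and the differences of the members were small. None of 78 tested members was called by limma or by edgeR on recovered reads, and 0% of all 9835 genes was called by limma. At an unadjusted p under 0.05 there were 2 higher and 13 lower, where the background was 4.73% higher and 7.15% lower. The groups were separated for 5 members upwards and 14 downwards, against 8.88% and 10.8% of all genes. The median log2 difference was −0.07 over members and −0.01 over all genes, and 52 of 78 were negative. Summed complex IV was 1176 ± 78.1 FPKM with MCC950 and 1315 ± 62.6 FPKM without inhibitor (SD, n = 3 each, ratio 0.894), and the other complexes had ratios between 0.920 and 0.988.

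The members with the smallest p in this comparison differed by less than 0.5 on the log2 scale. Ndufa4l2 had 1.84, 2.00 and 1.65 FPKM with MCC950, against 2.77, 2.57 and 2.55 FPKM without inhibitor (log2 difference −0.36, SE 0.07, limma adjusted p = 0.390). Ndufb9, an accessory subunit of complex I, had 29.6, 33.9 and 33.0 FPKM with MCC950, against 42.9, 41.3 and 38.2 FPKM without inhibitor (log2 difference −0.33). Cox8a, the liver form of the smallest complex IV subunit, had 126, 189 and 160 FPKM with MCC950, against 224, 213 and 196 FPKM without inhibitor (log2 difference −0.43, limma adjusted p = 0.394). In all 3 every MCC950 library was below every library without inhibitor, though for Cox8a MCC950 replicate 2 came close. Cox6a1 was lower too, with 245, 277 and 246 FPKM against 319, 327 and 282 FPKM, whereas Atp5f1, the gene listed as Atp5pb in the TAA table, had 46.0, 44.4 and 49.6 FPKM with MCC950 and 40.1, 40.8 and 41.6 FPKM without inhibitor (log2 difference 0.19). Sdhd, called in the TAA livers, had 116, 127 and 131 FPKM with MCC950 and 107, 129 and 121 FPKM without inhibitor, which overlap. Replicates agreed closely in these cultures, with a median coefficient of variation over members of 6.29% with MCC950 and 8.85% without inhibitor.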

How the data were processed

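RNA of 21 mouse libraries had been extracted with TRIzol and sequenced, per the labels' protocols. The submitters' processing notes name HISAT2 2.2.1, featureCounts 1.5.0-p3 and the mm10 build. Neither the strand setting of the counting nor the handling of reads shared between near-identical copies is recorded there. The deposited tables hold raw counts and FPKM for the TAA livers and the authors' FPKM alone for the CCl4 livers and hepatocytes. In the CCl4 and hepatocyte tables, values multiplied by gene length were whole multiples of 1 step in at least 99.88% of cases (within 0.05), so reads were recovered and tested as an alternative.

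Counts were tested with edgeR 4.0.16 (quasi-likelihood, TMM factors, filterByExpr) and FPKM with limma 3.58.1 (intensity trend) on log2(FPKM + 1), after removing genes whose mean was under 1 FPKM, in R 4.3.3. The pseudocount understates differences of low genes. CCl4-table groups shared 1 fit. Adjustment (Benjamini-Hochberg) ran over all genes tested, and calls were made at 0.05. Of the members, 84, 79 and 78 passed the filter in the TAA, CCl4 and hepatocyte tables, and those below it are given as levels. The scripts were tested on simulated data. Alternatives, DESeq2 1.42.0 among them, are in the closing section. Groups were compared within a table, never across tables.

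The members and gene lists were chosen with earlier results of these data known. Members named are those called (up to 15 each way), otherwise the 2 of each complex with the smallest p, the highest and lowest of each complex, and the isoform pairs. Others named were chosen after their values were seen. Same-numbered replicates deviated together for wild-type CCl4 against oil (correlations 0.225, 0.319 and 0.516) and for labelled Sting knockout against wild type (0.189, 0.176 and 0.120), which comes from the data and not the labels. Coordinates are those of the deposited tables. Ndufb1-ps, Cox5b-ps and Atp5md counted as members in the TAA table alone (Ndufb1-ps is annotated as a non-coding RNA in the others), and Cox7b2, Cox8c, Atp5s and another Atp5o identifier (at 0) in the others. Pseudogenes were left out, but reached 92.8 FPKM (Ndufa12-ps, TAA), so members with such copies, Ndufa12 among them, are uncertain.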

Additional observations from a re-analysis of the deposited data

How the results depend on the processing

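For wild-type CCl4 against oil the count of members lower was 1 with a pseudocount of 0.1, TMM-like scaling, edgeR on recovered reads or coding genes alone (15.4% to 18.7% of all genes called), 8 with the replicate block (19.3%), 13 with the 2 groups alone (17.8%), 42 with both (26.7%), 3 with a length trend removed (18.3%) and 0 to 15 with single libraries left out. For labelled Sting knockout CCl4 against oil it was 1 with edgeR, the replicate block or the length trend removed (16.1% to 17.9%), and 0 to 5 with libraries left out. Under TAA the count higher was 0 with RLE factors (0.00537%) or the replicate block (0.0107%), 24 with DESeq2 (10.9% of all genes called), 39 with limma on FPKM (23.7%) but 4 with the length trend removed as well (4.11%), 14 with no filter (4.76%) or nuclear coding genes alone (6.20%), 0 and 15 at thresholds of 0.04 and 0.06, and 0 to 30 with libraries left out. The count lower was 0 to 12 with libraries left out. Under TMM-like scaling the summed log2 ratio moved to 0.29, 0.49 and 0.60 in complexes III, IV and V, against 0.65, 0.85 and 0.96 as reported. The factors of this scaling apply to a whole library, so they also bear on complexes I and II. Sdhb in the labelled knockout libraries against wild type turned to −0.00743 without labelled knockout replicate 2, with a range of −0.00743 to 1.02 over single libraries left out. Of the other recomputed values of named members, 717 kept their direction and their side of the threshold, 36 came to pass it and 33 no longer passed it. The causes were not tested. The length removal, the block within 2 groups and the thresholds were chosen after seeing the data. The replicate block left no call for MCC950, where each library correlated best with its own number (0.179, 0.218 and 0.0850), and changed no call for labelled Sting knockout against wild type. Same-number correlations were 0.0223, 0.179 and 0.0929 for labelled knockout against oil and 0.0884, −0.00062 and 0.00492 under TAA, where no pairing was found. With 3 libraries a group, low isoforms could not reach an exact p under 0.1.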
